A study of Mus musculus with 25 samples.

Results

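The Hox cluster genes were examined for GATA1 and TAL1 binding in mouse erythroid cells. A gene was a member if it was protein coding in GENCODE vM1 on the mm9 genome and carried a symbol from Hoxa to Hoxd followed by a number, which gave 39 of 22208 protein-coding genes. They lay in 4 clusters, with 11 genes in Hoxa on chromosome 6, 10 in Hoxb on chromosome 11, 9 in Hoxc on chromosome 15 and 9 in Hoxd on chromosome 2.

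The series used ChIP-exo, in which an exonuclease trims immunoprecipitated DNA up to the crosslinked protein, on 10 GATA1 libraries and 15 TAL1 libraries. The cells were G1E-ER4, a derivative of the GATA1-null line G1E in which GATA1 is fused to an estrogen receptor ligand-binding domain, and G1E itself, so all cells lacked endogenous GATA1. GATA1 libraries came from G1E-ER4 before estradiol (0 h, 3 libraries), after 3 h (3) and after 24 h of it (3), at 10 nM per the labels, and from G1E (1). TAL1 libraries came from the same cells before estradiol (5), after 3 h (3) and after 24 h (3), and from untreated G1E (4). The deposited lists pool times and replicates, so that neither a time course nor a spread between replicates can be given. They also hold positions alone, with no tag count, so the depth and the strength of each call are unknown and every value below is a count, a distance or a share.

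Hox genes encode homeodomain transcription factors that specify position along the body axis. Their order along each cluster follows the order in which they are used, with low-numbered, anterior groups at one end and high-numbered, posterior groups at the other. In blood, members of the Hoxa and Hoxb clusters are known for their activity in stem and progenitor cells and for their decline as cells mature, and they act with TALE homeodomain cofactors such as Meis1. GATA1 is the zinc finger factor that drives red cell maturation, and TAL1 is a basic helix-loop-helix factor that binds with it in a larger complex. Polycomb proteins hold Hox clusters silent, and proteins of the MLL complexes keep them active.

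The Hox clusters held as many GATA1 final locations as their length would hold at the genome's density, within counting error, and 1 TAL1 final location where that density gives 5.31. That density is a mean over a genome in which locations lie unevenly, as given below. A final location is a position called by MultiGPS, a program that fits binding events jointly over conditions, that also has a peak pair of the same factor within 100 bp. Peak pairs are matched exonuclease stops on the 2 strands. Of 10290 GATA1 final locations, 3 lay inside a Hox cluster and 4 within a cluster or 50 kb of it, where the genome density gives 3.59. Of 15209 TAL1 final locations, none lay inside and 1 lay within 50 kb. Hoxc held 4 of these 5 locations and Hoxb the other, while Hoxa and Hoxd had none of either factor.

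The DNA under these 5 locations is shown because they are all the final locations of either factor within 50 kb of a Hox cluster. Each is read from mm9 on the plus strand, 5′ to 3′. Capitals mark the GATA motif AGATAA or TGATAA on either strand, written WGATAA below. The GATA1 windows span 40 bp to each side of the location. The TAL1 stretch is longer so as to include the GATA1 calls beside it.
GATA1, downstream of Hoxb13, chr11:96064668-96064748: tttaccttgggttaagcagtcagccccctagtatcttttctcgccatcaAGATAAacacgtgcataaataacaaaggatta
GATA1, between Hoxc12 and Hoxc11, chr15:102775786-102775866: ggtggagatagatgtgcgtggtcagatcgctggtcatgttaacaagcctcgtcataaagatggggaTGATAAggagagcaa
GATA1, intron of Hoxc4, chr15:102852142-102852222: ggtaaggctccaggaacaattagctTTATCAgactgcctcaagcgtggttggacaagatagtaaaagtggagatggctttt
GATA1, beyond the Hoxc4 end of the cluster, chr15:102914076-102914156: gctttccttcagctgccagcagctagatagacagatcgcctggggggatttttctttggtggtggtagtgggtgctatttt
TAL1, beyond the Hoxc4 end of the cluster, chr15:102898183-102898353: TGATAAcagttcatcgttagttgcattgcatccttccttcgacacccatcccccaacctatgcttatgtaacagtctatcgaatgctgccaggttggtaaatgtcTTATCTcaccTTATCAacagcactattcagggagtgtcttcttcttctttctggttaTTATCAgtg

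The Hoxb location, at chr11:96064708, lay outside protein-coding genes and 9078 bp from the start of Hoxb13, the most posterior gene of its cluster, known for its part in tail and prostate development. It had 5 GATA1 peak pairs within 100 bp and an AGATAA starting 9 bp beyond it, with the E-box string CACGTG starting 16 bp beyond it. The next TAL1 peak pair was 4063 bp away and the next TAL1 final location 215365 bp away. It had the most peak pairs of the GATA1 locations, as the other 3 had 2, 1 and 1 within 100 bp. Of its 5 pairs, those at chr11:96064622 and chr11:96064623 were at adjacent bases, so the 5 may not be separate events.

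The location between Hoxc12 and Hoxc11, genes of the posterior trunk and hind limb, was at chr15:102775826, 8638 bp from the Hoxc12 start. It lay in the noncoding processed transcript Gm16258 and had 2 GATA1 peak pairs, 1 of them 1 bp before an AGATAG that had a TG 8 bp upstream. This AGATAG started 35 bp before the location, and a TGATAA started 26 bp beyond the location. TAL1 was called by MultiGPS 46 bp away, at chr15:102775872, but the closest TAL1 peak pair was 8891 bp from that call, which kept it off the final list. TAL1 support here therefore came from 1 of the 2 calling methods.

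Hoxc4 carried the only final location inside a Hox gene body. At chr15:102852182 it lay in an intron, 2815 bp from the Hoxc4 start, with 1 GATA1 peak pair 2 bp away. A TTATCA, the reverse of TGATAA, started 15 bp before it, and a TG stood 8 bp upstream of this motif on its own strand. An AGATAG started 15 bp beyond the location, also with a TG 8 bp upstream. A TG 7 or 8 bp before WGATAA is the composite arrangement associated with the GATA1 and TAL1 complex. The closest TAL1 call of any list was nevertheless 2832 bp away.

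The remaining GATA1 location, at chr15:102914116, lay 46.8 kb past the Hoxc4 end of the cluster. It had no WGATAA within 40 bp but an AGATAG starting 16 bp before it and an E-box, CAGCTG, starting 31 bp before it. E-boxes, CANNTG, are the sites that TAL1 recognizes with its E-protein partner. Its 1 peak pair was 95 bp off, close to the limit of 100 bp, and the closest TAL1 call of any list was 13350 bp away.

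The TAL1 location, at chr15:102898263, lay 31.0 kb past the same end. It had TAL1 peak pairs at 0 and 61 bp, and TTATCT and TTATCA started 25 and 35 bp beyond it, 4 bp apart. The TTATCT had a TG 8 bp upstream on its own strand. This TG was the first 2 bases of the neighbouring TGATAA, and the TAL1 location lay on the opposite side of the TTATCT from it. GATA1 was called here by both methods but not at the same place, with a MultiGPS event 66 bp to one side and a peak pair 60 bp to the other. The GATA1 MultiGPS event was 5 bp from the TAL1 peak pair at 61 bp. The 2 GATA1 calls were 126 bp apart, over the limit of 100 bp, so GATA1 was not on the final list here.

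**Figure D1:**
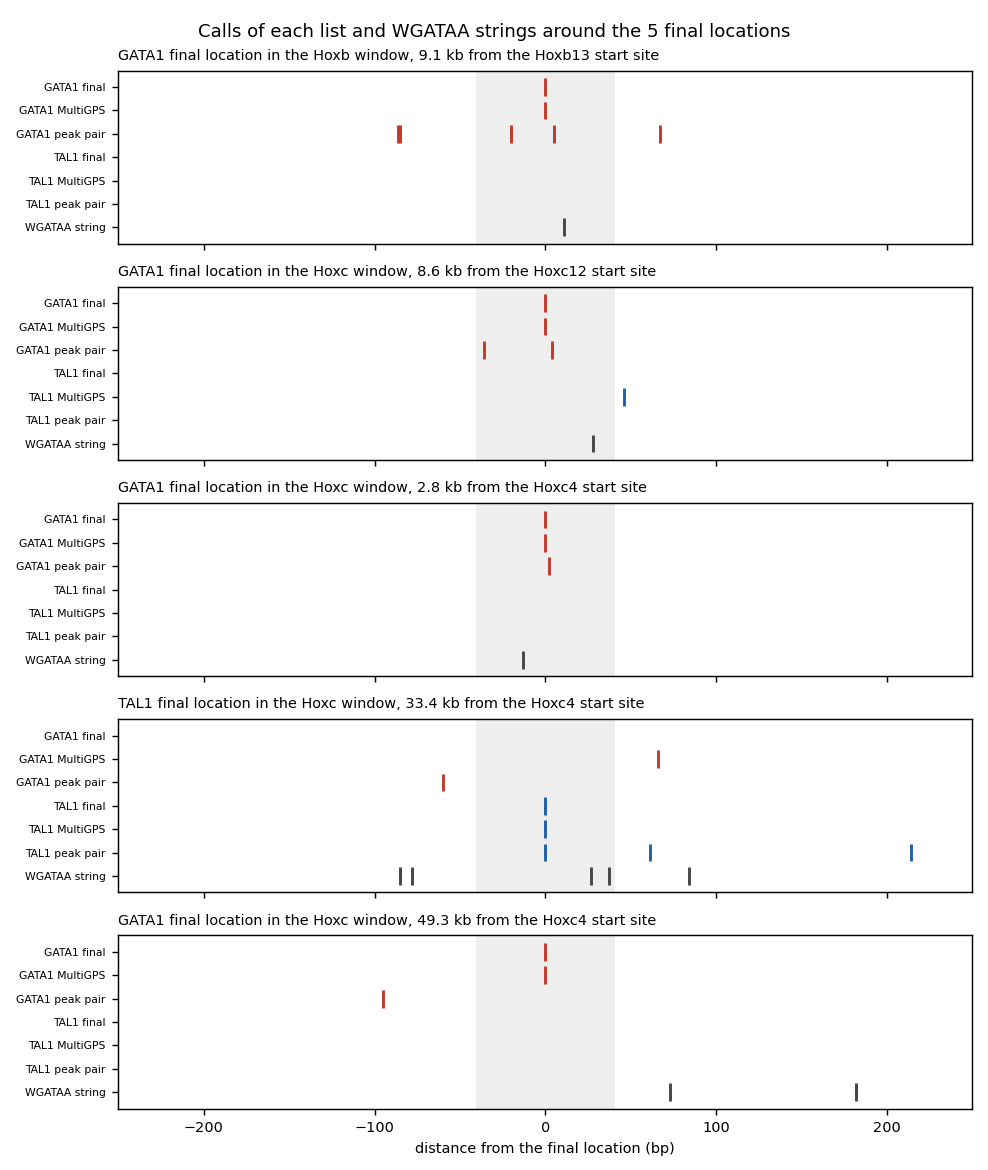
Calls of each list and WGATAA strings around the 5 final locations, in bp from each location. Red ticks are GATA1 calls, blue ticks TAL1 calls and grey ticks the third base of a WGATAA string, and the shaded band marks 40 bp to each side. The Hoxb13 location has 5 GATA1 pairs and no TAL1 call, while at the TAL1 location the GATA1 pair lies 60 bp to the left and the GATA1 MultiGPS event 66 bp to the right.

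No final location at a Hox cluster was cooccupied, meaning that a final location of the other factor lay under 40 bp away. The counts were 0 of 4 for GATA1 and 0 of 1 for TAL1. In the whole series 35.9% of GATA1 locations (3697 of 10290) and 27.5% of TAL1 locations (4179 of 15209) were cooccupied. Counts this small do not separate the Hox locations from the series. For contrast, the closest cooccupied site to any Hox cluster is shown, in an intron of Skap1, an adaptor protein gene of lymphocytes next to the Hoxb1 end, where GATA1 at chr11:96329568 and TAL1 at chr11:96329569 were 1 bp apart, the GATA1 location being 99998 bp from the cluster.
GATA1 and TAL1, intron of Skap1, chr11:96329528-96329608: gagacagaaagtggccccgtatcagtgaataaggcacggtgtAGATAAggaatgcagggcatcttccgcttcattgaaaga

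WGATAA was present within 40 bp of 3 of the 4 GATA1 locations and of the single TAL1 location. The same string was present at 66.5% of all GATA1 and 45.9% of all TAL1 final locations. In windows moved by 1 kb it was found at none of the 5 Hox locations, against 8.29% and 8.23% of moved windows over the GATA1 and TAL1 lists. The composite arrangement was present at 1 of 4 GATA1 and 1 of 1 TAL1 locations, against 21.9% and 25.02% in the series. At the TAL1 location its TG was part of the neighbouring WGATAA. An E-box was within 40 bp of 2 of 4 GATA1 locations and of the TAL1 location in no case, against 38.2% and 45.3%. These strings are matches of letters and not proof of a site.

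The clusters offered fewer GATA motifs per kb than the genome. The 4 clusters with their flanks held 820 WGATAA strings in 892025 bp, or 0.919 per kb, against 1.45 per kb in the genome. Their base composition also differed, with 47.1% GC against 41.8% and with CpG at 1.86% against 0.834% of positions. Inside the clusters alone, without flanks, the density was 0.782 per kb at 49.3% GC. Of the 820 strings, 3 lay within 40 bp of a GATA1 final location, or 0.366% (exact binomial 95% interval 0.0755% to 1.06%), against 0.233% of 3714389 strings in the genome. For TAL1 it was 2 strings, both at the same location, or 0.244% (0.0296% to 0.878%), against 0.200%. The genome share lay within the interval for each factor. With peak pairs in place of final locations, 14 of the 820 strings had a GATA1 pair within 40 bp, or 1.71% (0.937% to 2.85%), against 0.584% in the genome, which lay below the interval. It did so within 20 bp too, at 1.10% (0.503% to 2.07%) against 0.406%, and inside the clusters alone, at 1.82% (0.734% to 3.71%). For TAL1 pairs it was 3 strings, or 0.366% (0.0755% to 1.06%), against 0.381%. These intervals cover counting error only and treat neighbouring strings as independent. Per the study's methods, reads that did not map uniquely and peaks in blacklisted regions were dropped. The genome counts include strings in such sequence, which may have been unable to carry a call. Their share in the genome and in the clusters was not measured, so the contrasts with the genome may partly reflect it.

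The density of calls over each cluster with its flanks was compared with the genome. Over all 4 windows (892.0 kb), GATA1 had 4.48 final locations per Mb (exact Poisson 95% interval 1.22 to 11.5), against 4.03 per Mb in the genome. TAL1 had 1.12 per Mb (0.0284 to 6.25), against 5.95 per Mb. The genome value was inside the interval for both factors, for TAL1 near its upper end. Hoxc stood highest for GATA1 at 13.9 per Mb (2.87 to 40.6), with 3 locations. Of 11712 windows of 220 kb tiled over the genome, 29.4% had a GATA1 final location, 12.95% had 3 or more, and 28.8% had a TAL1 final location. Windows with none were thus the usual case, and Hoxa and Hoxd were among that majority. The fullest windows held 27 GATA1 and 51 TAL1 final locations. Locations thus lay unevenly over the genome, and the Poisson intervals, which treat them as independent, are too narrow. The genome length also includes sequence where reads do not map uniquely, and the size of that part was not measured.

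The single-method lists gave a similar order of clusters. In the MultiGPS lists GATA1 had 5 entries at Hoxc, 2 at Hoxb and none at Hoxa or Hoxd, and TAL1 had 3 at Hoxc and none at the others. The Hoxc MultiGPS entries came to 23.2 per Mb for GATA1 (7.53 to 54.1), against 5.00 per Mb in the genome, which lay below the interval, and to 13.9 per Mb for TAL1 (2.87 to 40.6), against 6.90 per Mb, which lay inside it. In the peak pair lists GATA1 had 10 at Hoxc, 9 at Hoxb, 1 at Hoxd and none at Hoxa. TAL1 had 10 pairs at Hoxc, 3 at Hoxb, 2 at Hoxa and none at Hoxd. The Hoxc peak pairs came to 46.4 per Mb for each factor, with an interval of 22.2 to 85.2, against 18.3 per Mb for GATA1 and 24.9 per Mb for TAL1 in the genome. The GATA1 genome value was below that interval and the TAL1 value inside it. At Hoxa the interval for 0 GATA1 pairs reached 17.95 per Mb, just under the genome value, and at Hoxd the interval for 0 TAL1 pairs reached 18.7 per Mb, also under it. These are 6 lists over 4 clusters, or 24 intervals with no correction, and calls close together can come from the same binding event.

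**Figure D2:**
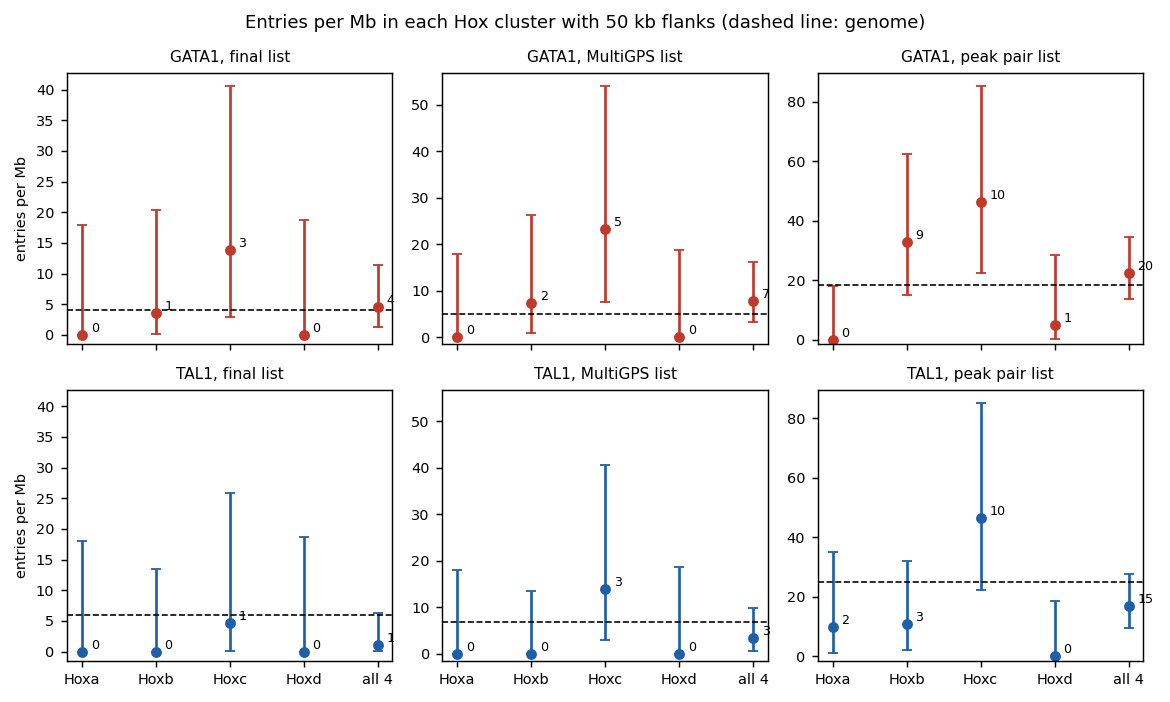
Entries per Mb in each Hox cluster with 50 kb flanks and over all 4, for the final, MultiGPS and peak pair lists of GATA1 (top, red) and TAL1 (bottom, blue). Points are the observed density with the number of entries beside them, bars are exact Poisson 95% intervals, and the dashed line is the genome density. Hoxc is highest in each panel, and Hoxa and Hoxd have no final or MultiGPS entry.

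**Figure D3:**
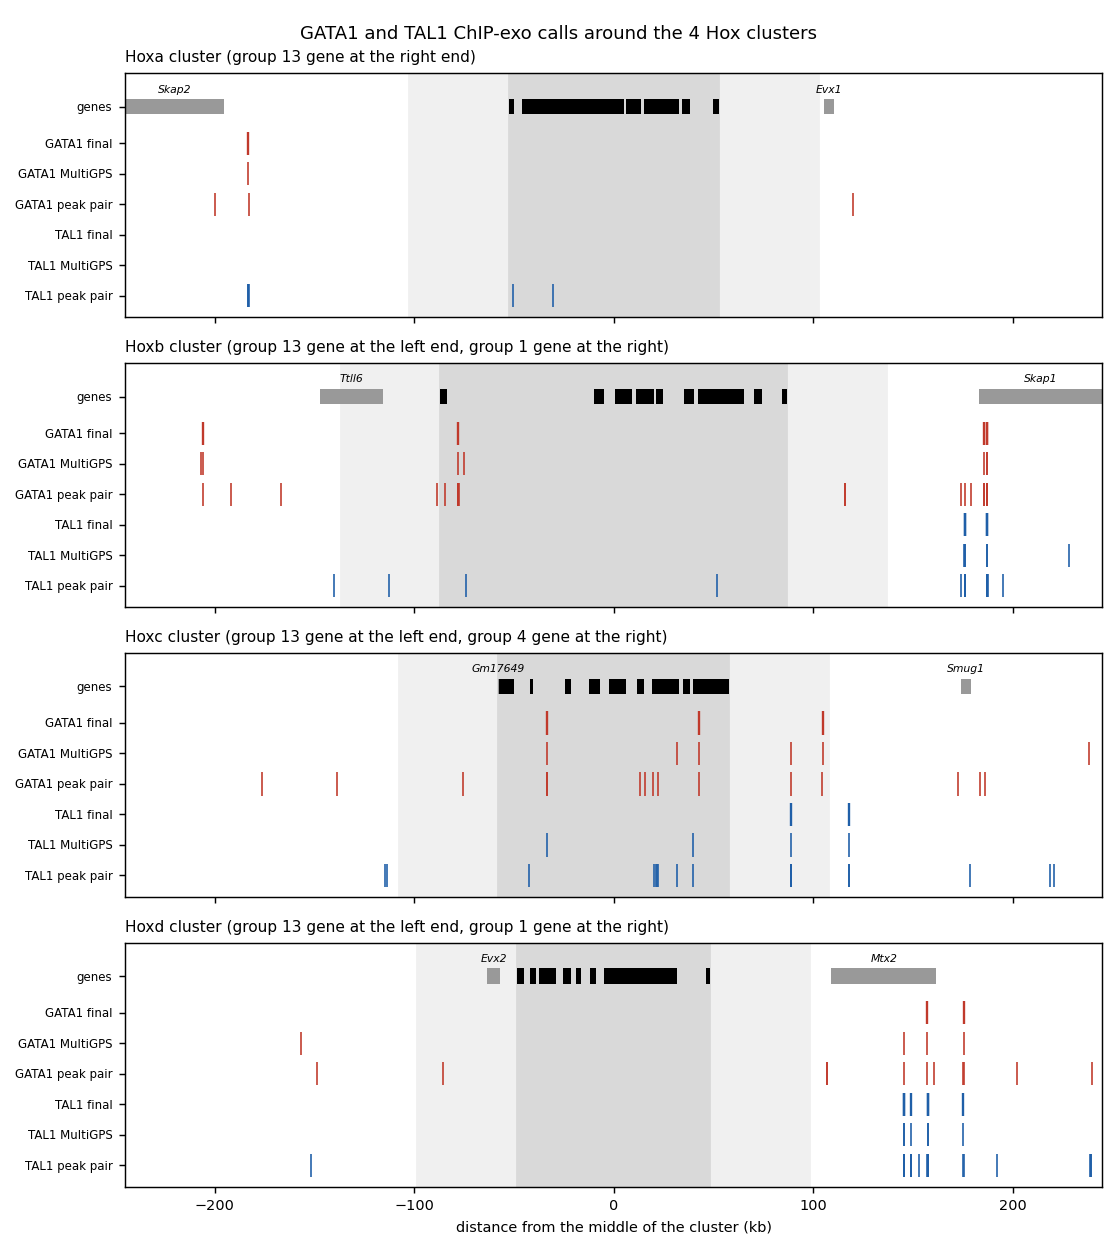
Calls of each list around the 4 clusters, in kb from the middle of the cluster. Black bars are Hox genes, grey bars the directly neighbouring protein-coding genes, dark shading the cluster and light shading its 50 kb flanks. The shaded windows of Hoxa and Hoxd are empty in the final and MultiGPS tracks. Outside the shading, calls of both factors gather at Skap1 to the right of Hoxb and at Mtx2 to the right of Hoxd.

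Counted by gene, 6 of 39 Hox genes (15.4%) had a GATA1 final location in the body or within 10 kb, against 23.9% of all protein-coding genes. For TAL1 it was 0 of 39, against 21.3%. The 6 genes were Hoxb13, Hoxc12, Hoxc11, Hoxc6, Hoxc5 and Hoxc4, each with 1 location, and they shared 3 locations among them. Hoxc12 and Hoxc11 were reached by 1, and Hoxc4, Hoxc5 and Hoxc6 by another, from 0, 4322 and 9870 bp. Hox genes are packed closely, so neighbours are not independent. They are also short, with a median length of 4.06 kb against 15.5 kb for all genes. The part of gene length in these shares was not tested. Counted from start sites alone, within 10 kb, 5 Hox genes had a GATA1 location, against 17.9% of all genes, and none had a TAL1 location, against 14.9%. A final location of either factor was found for 6 Hox genes, against 29.0% of all genes, and an entry of any list of either factor for 13 of 39 (33.3%), against 63.9%.

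The lists of single methods changed the TAL1 count more than the GATA1 count. With MultiGPS the same criterion gave 6 Hox genes for GATA1, against 27.5% of all genes, and 5 for TAL1, against 24.8%. With peak pairs it gave 8 for GATA1, against 48.4%, and 10 for TAL1, against 50.1%. The 5 genes with a TAL1 MultiGPS call were Hoxc4, Hoxc5, Hoxc6, Hoxc11 and Hoxc12, again through 2 positions. Those with TAL1 peak pairs included Hoxa2, Hoxa3, Hoxb3, Hoxc4, Hoxc5, Hoxc6, Hoxc8, Hoxc12 and Hoxc13.

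Hoxc6, which patterns the thoracic region, had the most TAL1 peak pairs in its body, with 5, along with 2 GATA1 pairs and a GATA1 MultiGPS event in an exon. None of these 5 pairs was at a TAL1 MultiGPS event. Over all the clusters and flanks, 8 of 15 TAL1 pairs lay within 1 kb of an annotated start site, or 53.3% (exact binomial 95% interval 26.6% to 78.7%), against 8.58% of all 63546 TAL1 pairs. The nearest starts included Hoxc6 in 4 cases, Hoxc12, Hoxc4 and, for a pair at Hoxa3, the overlapping gene 5730596B20Rik. The 4 pairs near Hoxc6 starts lay between chr15:102829509 and chr15:102831408, whereas the interval treats pairs as independent. Without flanks, the clusters hold 57.5 to 104.3 Hox genes per Mb, against 8.69 protein-coding genes per Mb in the genome. The part of this gene density in the share near starts, which was counted with flanks, was not tested. None of those 8 pairs had WGATAA within 40 bp. Their median GC content over 201 bp was 54.7% (40.8% to 59.7%), against 46.3% for all TAL1 pairs. The latter value covers pairs at any distance from a start, so the 2 sets are not alike in that respect.

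For GATA1 pairs the picture was different, with 2 of 20 within 1 kb of a start (10.0%), against 10.5% in the series. WGATAA stood within 40 bp of 13 of the 20 GATA1 pairs, or 65.0% (40.8% to 84.6%), against 48.2% of all GATA1 pairs. It stood within 40 bp of 2 of the 15 TAL1 pairs, or 13.3% (1.66% to 40.5%), against 27.4%. The series value was inside the interval in both cases. Of the Hox pairs, 9 of 20 for GATA1 and 2 of 15 for TAL1 were within 100 bp of a MultiGPS event of the same factor, against 46.1% and 50.1% of all pairs.

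MultiGPS events that lacked a peak pair were also placed. For GATA1 they lay at chr11:96067435, 2660 bp from its closest own pair, at chr15:102841347 in an exon of Hoxc6, 9869 bp from its closest pair, and at chr15:102898329 beside the TAL1 location. For TAL1 they were the call near Hoxc12 and one 17 bp before the start of Hoxc4, at chr15:102849350, whose closest pair was 173 bp away. The sequence up to the Hoxc4 start is given because this was the call nearest to any Hox start in the MultiGPS lists. Its capitals mark an E-box that begins 6 bp beyond the call, and the stretch holds no WGATAA.
TAL1 MultiGPS, before the Hoxc4 start, chr15:102849307-102849366: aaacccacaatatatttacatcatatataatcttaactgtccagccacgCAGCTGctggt

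The distance from each Hox start to the closest final location gave the same order of clusters without a fixed window. For GATA1 the median over the 39 genes was 119.9 kb (2.82 to 235.9 kb), against 92.3 kb for all genes. For TAL1 it was 164.8 kb (48.9 to 774.9 kb), against 101.6 kb. A start within 100 kb of a location was found for 15 Hox genes for GATA1 (38.5%) and 7 for TAL1 (17.9%), against 51.7% and 49.6% of all genes. Genes of a cluster share the same nearby locations, so these 39 distances stand for 4 regions.

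In Hoxc the GATA1 distances ran from 2.82 kb at Hoxc4 to 31.1 kb at Hoxc8, with a median of 21.4 kb, and the TAL1 distances from 48.9 kb at Hoxc4 to 146.7 kb at Hoxc13, a gene of hair and nail formation, with a median of 91.4 kb. In Hoxb the GATA1 distances ran from 9.08 kb at Hoxb13 to 119.9 kb at Hoxb3 (median 94.1 kb) and the TAL1 distances from 91.5 kb at Hoxb1, a hindbrain gene, to 206.3 kb at Hoxb13 (median 159.8 kb). In Hoxd they ran from 111.0 kb at Hoxd1 to 205.7 kb at Hoxd13, which shapes the digits, for GATA1, and from 99.2 kb to 193.8 kb at the same genes for TAL1. In Hoxa they reached 235.9 kb at Hoxa13, a gene of the distal limb, for GATA1 (median 188.4 kb) and 774.9 kb at the same gene for TAL1 (median 727.4 kb). The Hoxd medians were 176.3 kb for GATA1 and 164.5 kb for TAL1. By median distance to a final location, Hoxa was thus the cluster farthest from both factors. Its TAL1 distances overlapped with no other cluster, while its GATA1 distances overlapped with those of Hoxd. TAL1 peak pairs did not follow this order, with 2 in the Hoxa window and 0 in the Hoxd window.

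**Figure D4:**
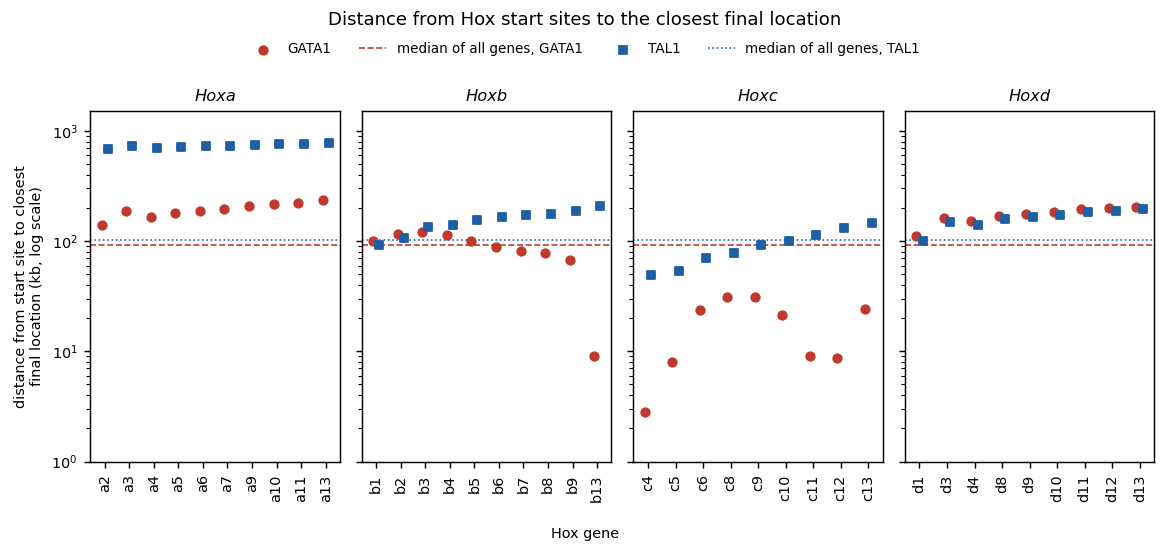
Distance in kb, on a log scale, from the start of Hox genes to the closest GATA1 (red circles) and TAL1 (blue squares) final location, with the median of all protein-coding genes as a dashed line for GATA1 and a dotted line for TAL1. All Hoxc genes lie under the GATA1 median of 92.3 kb, and the Hoxa genes lie around a median of 727.4 kb from TAL1.

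By position in the cluster, there were 8 anterior genes (groups 1 to 3), 15 central genes (groups 4 to 8) and 16 posterior genes (groups 9 to 13). These classes had a GATA1 final location in the body or within 10 kb in 0, 3 and 3 cases, against 23.9% of all protein-coding genes. The genes with a location shared 3 locations among them, so these counts do not separate the classes. The median GATA1 distances of the classes were 126.7, 99.2 and 179.6 kb and their median TAL1 distances 142.1, 157.5 and 184.3 kb. The ranges of the 3 classes overlapped for both factors.

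Outside the clusters the closest final location lay on the anterior side in Hoxb, Hoxc and Hoxd and for both factors. For GATA1 it was 46.8 kb beyond Hoxc4 and 306.8 kb beyond Hoxc13, 108.8 kb beyond Hoxd1 and 849.4 kb beyond Hoxd13, and 98.5 kb beyond Hoxb1 and 118.9 kb beyond Hoxb13. For TAL1 it was 31.0 and 462.7 kb at Hoxc, 97.0 and 845.0 kb at Hoxd, and 89.0 and 206.3 kb at Hoxb, in each case anterior side first. The closest distance is a single value per side, and the number of locations within 500 kb did not always follow it. At Hoxb there were 4 GATA1 locations on the anterior and 11 on the posterior side, and 4 and 17 for TAL1, while Hoxc had 6 and 1 for GATA1 and 19 and 1 for TAL1. The sides of Hoxa are not described here, and the direction rests on the clusters named, and the factors share many locations.

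The stretch with no final location that holds each empty cluster was long. For TAL1 it was 3043 kb at Hoxa, 1039 kb at Hoxd, 609.4 kb at Hoxc and 469.2 kb at Hoxb. For GATA1 it was 1055 kb at Hoxd and 525.0 kb at Hoxa. Gaps of 3043 kb or more made up 1.03% of all gaps between neighbouring TAL1 locations but held 30.4% of the bases between the first and last location of the chromosomes, and gaps as long as the other 5 held 62.4% to 77.5%. Gaps as long as those 5 thus covered most of that span, and gaps as long as the TAL1 stretch at Hoxa did not.

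Genes next to the clusters were described in the same way. Skap1 had 3 GATA1 and 4 TAL1 final locations in the body or within 10 kb, and Mtx2, a metaxin of the mitochondrial outer membrane beyond Hoxd1, had 1 and 5. Skap2, an adaptor protein gene beside the Hoxa cluster, had 1 and 0. The other direct neighbours, Evx1, Evx2, Ttll6, Smug1 and the short Gm17649, had none of either factor, and neither did the protein-coding genes annotated inside the clusters, 5730596B20Rik, Gm53 and Gm14396.

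The microRNA genes of the clusters had no final location close by. Mir196a-2 was 27.95 kb from GATA1 and 94.4 kb from TAL1, Mir196a-1 was 61.8 and 192.0 kb away, Mir10a 113.8 and 140.0 kb, Mir10b 147.8 and 136.0 kb, and Mir196b 205.2 and 744.1 kb. These 5 of the 8 noncoding RNAs looked for were found by name in the annotation, and Hotair, Hotairm1 and Hottip were not.

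The regulators of Hox genes were taken as lists and counted against the same background of 23.9% for GATA1 and 21.3% for TAL1. None of the 8 Cdx and ParaHox genes and their Evx relatives, homeobox genes related to or acting on the Hox clusters, had a final location of either factor. Of 11 TALE cofactors, 3 had a GATA1 and 2 a TAL1 location. Meis1, the Hox cofactor of progenitors, had 7 GATA1 and 6 TAL1 locations, Pbx3 had 1 of each, and Tgif2 had 1 of GATA1. Of 10 genes on a list of MLL complexes, partners and other chromatin proteins, 3 had a GATA1 and 3 a TAL1 location. Ash2l had 2 and 2, the closest 35.6 kb (GATA1) and 37.0 kb (TAL1) from its start, and the demethylase gene Kdm6a had 1 and 1. Dot1l had 1 of TAL1 and Kdm6b 1 of GATA1.

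Of 16 Polycomb genes, 9 had a GATA1 location (56.2%) and 3 a TAL1 location (18.8%). Ezh1 and Ezh2, the alternative Polycomb methyltransferases, had 4 and 2 GATA1 locations with 7 and 8 TAL1 locations. The closest lay 4.66 kb (GATA1) and 5.84 kb (TAL1) from the Ezh1 start, and 29.5 and 29.1 kb from the Ezh2 start. Rnf2, a ubiquitin ligase subunit, had 3 and 0, and Cbx7 had 1 and 1. In the erythroid comparison list, 13 of 15 genes had a GATA1 and 14 of 15 a TAL1 location. Zfpm1, the gene of the GATA1 partner FOG1, had 19 and 37, Runx1 had 12 and 18, Cbfa2t3 had 5 and 23, and Nfe2 had 4 and 12. These 4 genes had the most locations of the list, and other genes on it had few or none. Summed over genes, the 15 erythroid genes, a list chosen for its known GATA1 and TAL1 targets, had 65 GATA1 and 145 TAL1 locations. The 39 Hox genes had 6 and 0 in the same sum, in which a location near several genes counts once for each.

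**Figure D5:**
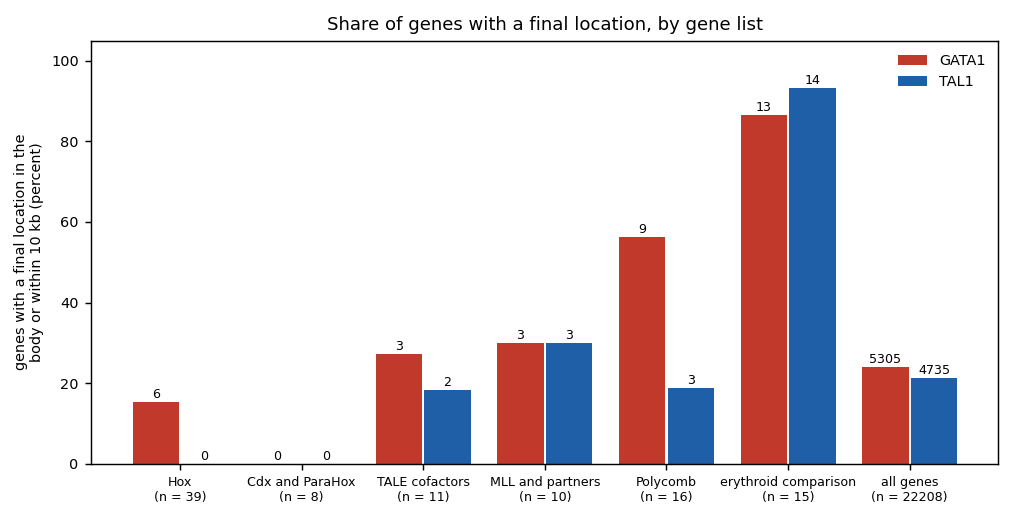
Percent of genes with a GATA1 (red) or TAL1 (blue) final location in the body or within 10 kb, by gene list, with the number of genes above each bar and the list size below it. Hox genes stand at 15.4% and 0%, and all genes at 23.9% and 21.3%.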

How the data were processed

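ChIP-exo libraries of GATA1 and TAL1 were analysed through the deposited position lists, which carry no score or count. Per the labels and the study's methods, reads were aligned to mm9 (BWA 0.6.2 and 0.7.9a, Bowtie 1.00), and the authors merged replicates, paired peaks, ran MultiGPS and kept MultiGPS events that a peak pair supported. In the deposited lists every final location was a MultiGPS position with a peak pair within 100 bp. The labels also link the G1E GATA1 library to these lists, whereas the methods name G1E-ER4 libraries for GATA1. The study's methods give a different estradiol dose than the labels.

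Positions were counted with Python 3.11.15, numpy 2.4.6, pandas 2.3.3 and scipy 1.17.1 on GENCODE vM1, using the longest entry per symbol on 20 chromosomes. Functions were tested on simulated positions. Motifs were exact strings in the NCBIM37 (mm9) genome. Exact Poisson and binomial 95% intervals cover counting error only. No test was run, since the lists hold no replicates. The members and lists (TALE cofactors, Cdx and ParaHox, Polycomb, MLL and partners, erythroid comparison, noncoding RNAs, paralog classes) were chosen with earlier results of these data known. Results on 1 member are not reported here. Genes named with values had a final location in or within 10 kb, were closest to one, stood at a cluster end or next to it, or had the most locations of a list (up to 4). Other genes with a call in a single-method list were named after their values were seen. Alternatives covered flank widths, gene windows, motif forms, cooccupancy distances and the other lists.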

Additional observations from a re-analysis of the deposited data

How the results depend on the processing

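No paired analysis was possible because the lists pool the libraries and carry no replicate, and no replicate could be left out for the same reason. Bounds from RefSeq genes were not run, since that table is on another build. Of 42 alternatives, 24 gave a count within 1.5 times the count given above and 18 did not. Counts were not rescaled to the width of the flanks or the length of the list, and a count of 0 that stayed 0 was taken as unchanged. The GATA1 count of 4 became 13 with flanks of 200 kb, 7 in the MultiGPS list and 20 in the peak pair list. The TAL1 count of 1 became 0 with flanks of 0, 10 or 25 kb, 7 with 100 kb, 12 with 200 kb, 3 in the MultiGPS list and 15 in the peak pair list. Hox genes with a GATA1 location, 6 within 10 kb, were 2 within 5 kb and 10 within 50 kb, and those with a TAL1 location, 0, were 1 within 50 kb, 5 in the MultiGPS list and 10 in the peak pair list. WGATAA was within 20 bp of 0 TAL1 locations, and bound strings were 14 with GATA1 peak pairs and 0 for TAL1 under 20 bp. With 1 to 6 in each count, a single location decides several of these values. Depth, call strength and the time at which a location was bound are unknown here.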

Other observations

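Genes in the wider neighbourhood of the clusters were counted too. Among 54 protein-coding genes within 500 kb of a cluster that are not Hox genes, 22 had a GATA1 (40.7%) and 16 a TAL1 (29.6%) final location in the body or within 10 kb, against 23.9% and 21.3% of all genes. These genes lie close together and share locations. Hoxb had 11 and 9 such genes of 20, Hoxc 7 and 6 of 25, Hoxa 3 and 0 of 5, and Hoxd 1 and 1 of 4. Nfe2, a bZIP factor of red cells and megakaryocytes, lay 211.4 kb beyond the Hoxc4 end with 4 GATA1 and 12 TAL1 locations, and Hnrnpa1 beside it had 2 and 4. Beyond Hoxb13, the zinc finger gene Zfp652 had 5 and 8.

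By distance from the cluster edge, GATA1 had 2.5 locations per Mb in the first 50 kb (exact Poisson 95% interval 0.0633 to 13.9), 5.00 between 50 and 100 kb (0.606 to 18.1) and 8.75 between 100 and 200 kb (3.52 to 18.0). TAL1 had 2.5 (0.0633 to 13.9), 15.0 (5.50 to 32.6) and 6.25 (2.03 to 14.6) in the same bands. From 200 to 500 kb, in bands of 100 kb, GATA1 had 7.5, 8.75 and 6.25, and TAL1 had 17.5 (9.57 to 29.4), 18.8 (10.5 to 30.9) and 7.5 (2.75 to 16.3). Inside the clusters the values were 6.10 (1.26 to 17.8) for GATA1 and 0 (up to 7.497) for TAL1. For GATA1 the value inside the clusters was above those of the first 2 bands, and all these intervals overlap. For TAL1 the interval inside the clusters overlaps those of 4 of the 6 bands and does not reach those of 200 to 300 kb, where 12 of the 14 locations lie at Hoxc, and 300 to 400 kb, where 10 of the 15 lie at Hoxb.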
